A study of Homo sapiens with 4 samples.

Results

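Agrimoniin, an ellagitannin of agrimony plants, was given together with erlotinib, a drug that blocks the kinase of the growth factor receptor EGFR, in 1 of the 4 tumour libraries of the series, and that library (the combination) was set against the library given erlotinib alone. All 251 barcodes of the combination library and all 306 of the erlotinib library were taken, 557 of the 1056 in the series, and 0 barcode sequences occurred in both. Both groups carried tumours of PANC-1, a human pancreatic ductal adenocarcinoma line, under the skin of nude mice, a strain without a thymus that still has macrophages, fibroblasts, endothelium and natural killer cells. The remaining libraries, agrimoniin alone and carrier control, gave a second addition of agrimoniin, without erlotinib, that shares no library with the first. Doses, duration of treatment and the number of animals or tumours per library are not given in the sources used here, and where the labels of the samples read erlotinib, which was followed, the design text of the series reads cyranin. With 1 library a side, every difference below is between 2 libraries, has no replicate check and no test, and its 95% interval covers counting error only.

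The libraries were single-cell RNA libraries from tumours digested with collagenase, and every barcode held UMIs (unique molecular identifiers, 1 per captured RNA molecule) of both species, so each barcode was split by species into a human part, read as PANC-1 RNA, and a mouse part, read as host RNA. Human genes took 77.9% of the UMIs in the combination library and 73.8% in the erlotinib library. The kept human parts numbered 245 and 292 and held 3109510 and 3775711 UMIs, with medians of 11819 and 11926.5 UMIs a part. The kept mouse parts numbered 249 and 305, held 888914 and 1383630 UMIs, and were shallower in the combination library, with medians of 2977 and 3861 UMIs. Levels are given as CPM, UMIs of a gene per 1000000 UMIs summed over the kept parts of that species in a library. The human parts carried PANC-1 features in both libraries, with VIM at 5941 and 5647 CPM, SOX9 at 387 and 283 CPM and the epithelial keratin KRT8 at 49.2 and 46.6 CPM, while CDKN2A, which is deleted in PANC-1, was at 0 UMIs in all 4 libraries. Of the 7 markers fixed for PANC-1, 5 reached a mean of 10 CPM in the human parts, and the keratins KRT7 and KRT19 did not. Of 8 genes of leukocytes, endothelium or fibroblasts that PANC-1 should lack, 1 (COL3A1, at 122 and 117 CPM) reached a mean of 10 CPM in the human parts.

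EGFR signals through RAS and ERK, and active ERK switches on its own brakes, among them the phosphatase DUSP6 and the Sprouty and SPRED proteins, so that their transcripts are commonly read as ERK output. Heat-shock chaperones such as the HSP70 family refold damaged proteins, and their genes are induced by the transcription factor HSF1, which binds heat-shock elements built of alternating GAA and TTC blocks. In pancreatic cancer the host supplies fibroblasts, including contractile myofibroblasts, and macrophages that range from inflammatory to matrix-remodelling states. Immediate early and heat-shock genes are also known to respond to the warm digestion of a tissue, and with 1 library a side, treatment and the handling of a library cannot be told apart.

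Few human genes differed by a large factor between the libraries. Of 9262 human genes with a mean of at least 10 CPM, 52 (0.561%) were higher in the combination library by at least 1.5-fold on the log2(CPM + 10) scale and 36 (0.389%) were lower, together 0.95% of the genes tested. The median log2 ratio of all human genes was -0.0055, and 48.9% of them were above 0. Over the 4019 genes with a mean of at least 50 CPM the log2 ratios had an SD of 0.186, of which counting error alone would give 0.112. The 12 highest genes were DUSP6, SERPINA3, BMPR1B, NEDD9, CCDC173, OSR2, SYNE1, KLF2, CYP1B1, MEF2C, ITGB8 and KLF4, and the 12 lowest were HSPA6, C15orf48, KRT80, NOTUM, ZFAND2A, ADAMTSL4-AS1, FAM107B, MXD1, C1QTNF12, IL32, HSPA1A and ZNF124.

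**Figure D1:**
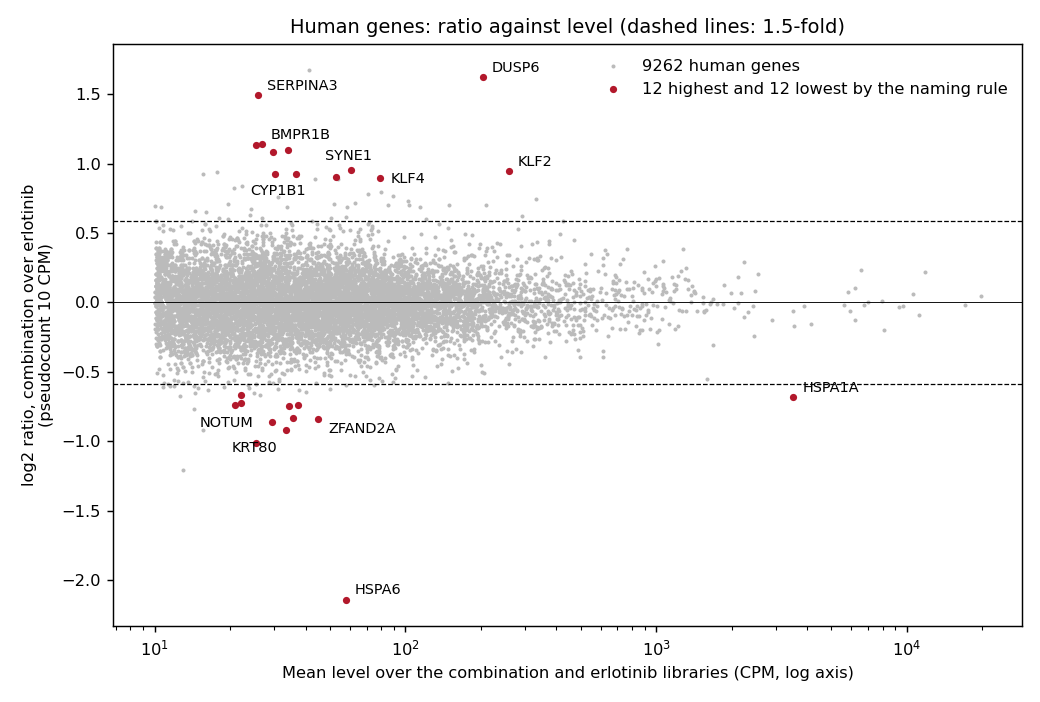
Log2 ratio of the combination over the erlotinib library (pseudocount 10 CPM, vertical axis) against the mean level of both libraries (CPM, log horizontal axis), 1 point per human gene; dashed lines mark 1.5-fold and red points the genes named by rank. DUSP6 (log2 1.62) and HSPA6 (log2 -2.14) lie farthest from 0 among the named genes, and HSPA1A is the one named gene above 1000 CPM in both libraries.

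Heat-shock genes leaned one way in the tumour cells, as 23 of the 24 tested members of the heat-shock chaperone list were lower in the combination library and 1, HSF2, was higher. Their median log2 ratio was -0.26, against -0.0055 over all human genes, 3 were lower by at least 1.5-fold (the background was 0.389% of genes), and for 19 the interval of the ratio lay wholly below 1. Summed over all 28 listed genes the level was 15236 CPM in the combination library and 19393 CPM in the erlotinib library, a ratio of 0.786 (0.777 to 0.795). Since HSF1 acts through heat-shock elements, the promoters were searched for a longer form, GAANNTTCNNGAA or TTCNNGAANNTTC, which are the reverse complement of each other and so cover both strands.

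The RefSeq promoter windows (GRCh38.p14, 250 bases before to 50 after the gene start) of 22 of the 24 tested members could be read, and 4 of them (18.2%), HSPA6, HSPA8, DNAJA1 and CHORDC1, held this 3-block element, against 172 of 35116 windows of all genes (0.49%). The promoters of 3 of these 4 are shown because they carry the element, which stands in capitals, and all are written 5′ to 3′ on the strand of the gene. HSPA6 lies at chr1:161524290-161524589 (+) with 1 match that ends 61 bases before the start, HSPA8 at chr11:123062087-123062386 (−) with 2 matches, and CHORDC1 at chr11:90223000-90223299 (−) with 3 overlapping matches.
HSPA6: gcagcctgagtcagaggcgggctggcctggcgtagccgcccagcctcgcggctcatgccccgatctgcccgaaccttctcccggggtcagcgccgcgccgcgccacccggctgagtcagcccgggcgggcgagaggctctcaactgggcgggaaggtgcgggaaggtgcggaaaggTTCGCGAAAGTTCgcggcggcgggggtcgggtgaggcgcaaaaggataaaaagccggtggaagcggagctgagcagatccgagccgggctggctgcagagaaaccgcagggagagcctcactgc
HSPA8: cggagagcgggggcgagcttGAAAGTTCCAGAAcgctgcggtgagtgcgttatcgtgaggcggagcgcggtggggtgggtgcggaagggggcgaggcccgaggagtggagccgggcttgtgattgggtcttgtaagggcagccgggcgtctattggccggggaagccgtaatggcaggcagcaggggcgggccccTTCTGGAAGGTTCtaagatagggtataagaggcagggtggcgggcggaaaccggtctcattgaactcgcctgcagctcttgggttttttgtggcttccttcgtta
CHORDC1: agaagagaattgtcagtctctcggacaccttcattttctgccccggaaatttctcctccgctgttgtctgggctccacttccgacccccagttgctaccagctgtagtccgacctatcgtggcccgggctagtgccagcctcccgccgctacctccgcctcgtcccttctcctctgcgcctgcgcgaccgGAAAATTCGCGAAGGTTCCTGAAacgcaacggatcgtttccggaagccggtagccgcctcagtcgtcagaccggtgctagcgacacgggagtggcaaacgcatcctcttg
A match is a description of letters in the window, and its absence in the window of HSPA1A says nothing of HSF1 at that gene.

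HSPA6, a strictly inducible HSP70 protein of humans with no mouse orthologue, stood at 15.1 CPM in the combination library and 101 CPM in the erlotinib library (47 and 380 UMIs), and at 21.9 CPM in the agrimoniin library and 95.02 CPM in the control library. Both libraries given agrimoniin were thus low and both without it high. The gene, at chr1:161524540-161526910 (+) in GENCODE 29, was 6.66-fold lower in the combination library (4.91 to 9.22), and it had a UMI in 10.2% of human parts there and 29.5% in the erlotinib library. HSPA1A, the main stress-induced HSP70, stood at 2705 CPM in the combination library and 4343 CPM in the erlotinib library, a ratio of 0.623 (0.607 to 0.639). Reads of HSPA1A and HSPA1B are hard to place, since the genes are near-identical, and their sum, 3992 CPM in the combination library and 6237 CPM in the erlotinib library, gives a ratio of 0.640.

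Most other members differed less than HSPA6. HSPA4L was at 57.6 and 82.6 CPM in the combination and erlotinib libraries, a ratio of 0.697 (0.576 to 0.840). BAG3, a co-chaperone that hands HSP70 clients to autophagy, was at 168 and 233 CPM, a ratio of 0.719 (0.644 to 0.802), and the HSP40 protein DNAJB1 at 339.9 and 417 CPM, a ratio of 0.815 (0.753 to 0.881). The constitutive HSP70 protein HSPA8 was at 1061 and 1183 CPM, a ratio of 0.897, DNAJA1 at 737 and 787 CPM, a ratio of 0.937, and CHORDC1 at 309 and 374 CPM, a ratio of 0.827. The 4 members with the 3-block element therefore ran from the largest difference of the list to one of the smallest. Of the regulators, which are also members of the list, HSF1 was at 24.1 and 24.4 CPM (0.990, 0.720 to 1.36). HSF2 was at 44.7 and 36.8 CPM (1.21, 0.953 to 1.55). Both intervals include 1, and that of HSF1 also includes the summed ratio of the list, 0.786. Whether HSF1 followed the chaperones therefore cannot be read from these counts. ZFAND2A, a stress-induced proteasome-associated protein, was at 29.3, 60.1, 60.2 and 93.8 CPM in the combination, erlotinib, agrimoniin and control libraries.

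**Figure D2:**
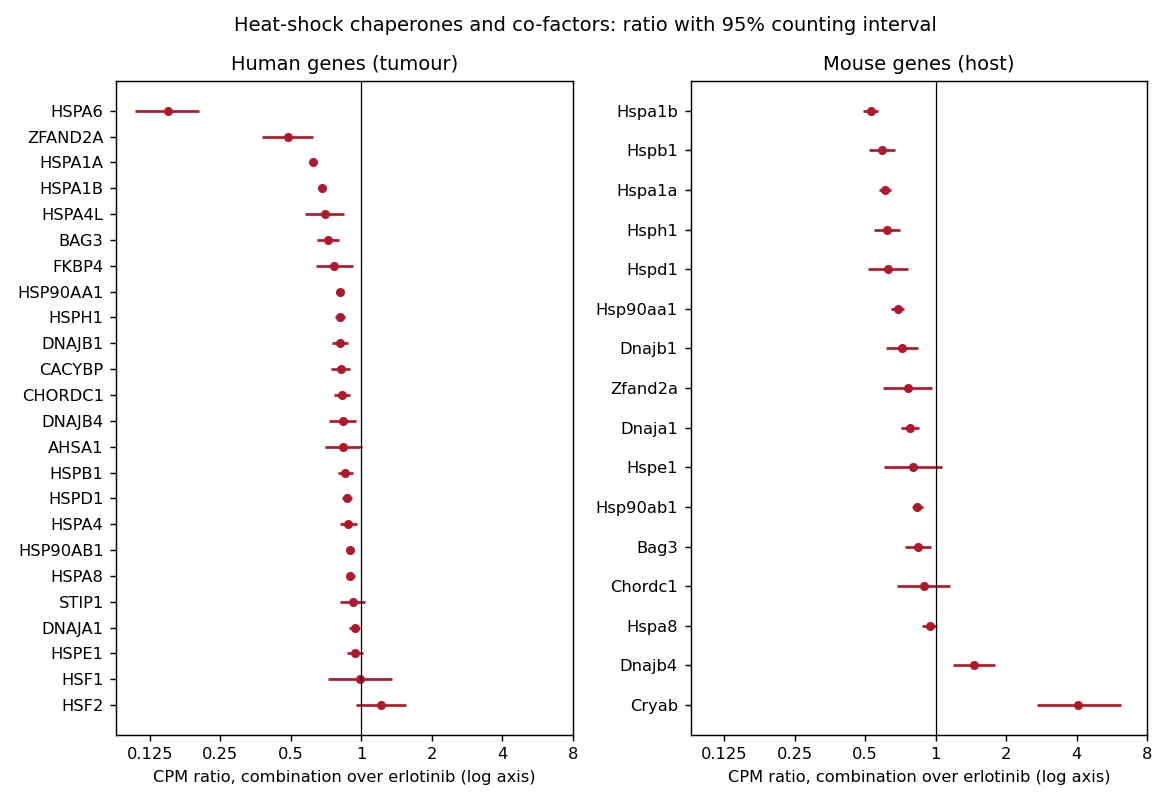
CPM ratio of the combination over the erlotinib library (log axis) for the members of the heat-shock list, human genes and host mouse genes in separate panels; points are ratios and bars their exact 95% intervals, counting error only. In the human panel 1 of 24 points, HSF2, lies above 1, and in the mouse panel 2 of 16, Cryab and Dnajb4.

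The host parts showed the same lean. Of 16 tested mouse heat-shock genes 14 were lower and 2 higher in the combination library, with a median log2 ratio of -0.36, and 5 were lower by at least 1.5-fold (6.44% of all 8754 mouse genes tested were). The near-identical pair Hspa1a and Hspa1b summed to 2865, 4995, 3791 and 4370 CPM in the combination, erlotinib, agrimoniin and control libraries. Hspb1, a small heat-shock protein, was at 372 CPM in the combination library and 631 CPM in the erlotinib library, and Hsph1, an HSP70 exchange factor, at 367 and 592 CPM. Cryab, the lens and muscle chaperone alpha-B crystallin, went the other way, with 102 and 25.3 CPM, but 40.7% of its UMIs in the combination library came from 1 barcode. Within fibroblast-like parts the median was -0.49 over 16 genes and within macrophage-like parts -0.43 over 15.

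DUSP6, SPRY1 and SPRY2, brakes on ERK, were higher in the combination library in both species, while the wider human list of ERK output divided. DUSP6 had 970 UMIs in the combination library and 359 in the erlotinib library, and a UMI in 66.5% and 41.1% of human parts, and its ratio was 3.28 (2.90 to 3.71). Its level in the erlotinib library, 95.1 CPM, was the lowest of the 4, with 312 CPM in the combination, 334 CPM in the agrimoniin and 186 CPM in the control library. SPRY2 was at 58.9 and 37.3 CPM in the combination and erlotinib libraries, a ratio of 1.58 (1.26 to 1.98), and SPRY1 at 33.4 and 19.6 CPM, a ratio of 1.71 (1.25 to 2.33). SPRY4 (149 and 139.6 CPM), SPRED1 (134 and 126 CPM) and SPRED2 (129 and 131 CPM) had intervals that include 1, and DUSP4 was too low to place at 6.75 and 4.50 CPM. DUSP5, a nuclear ERK phosphatase, was lower at 88.4 and 113 CPM, a ratio of 0.782 (0.670 to 0.912).

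Over the 17 tested genes of ERK feedback and output the median log2 ratio was 0.087, with 10 higher and 7 lower. Past 1.5-fold was 1, DUSP6 (0.561% of human genes were higher by as much). The ETS factor ETV5 (100.3 and 78.1 CPM, ratio 1.28, 1.09 to 1.51), MYC (78.1 and 62.8 CPM, ratio 1.25, 1.04 to 1.495) and PHLDA1 (394 and 329 CPM, ratio 1.20) were higher. PHLDA2 (116 and 179 CPM, ratio 0.649), the AP-1 subunit FOSL1 (135 and 157 CPM) and EPHA2 (93.9 and 112 CPM) were lower. Of the receptor's own family, EGFR was at 160.2 and 184 CPM (0.871, 0.775 to 0.979), its ligand TGFA at 10.3 and 17.5 CPM, the receptor inhibitor ERRFI1 at 1301 and 1139 CPM (1.14) and LRIG3, a membrane protein of a family that regulates receptor tyrosine kinases, at 41.2 and 27.0 CPM (1.52, 1.17 to 2.00). The 13 tested genes of this family list had a median of 0.018, with 7 higher and 6 lower.

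In the mouse parts 8 of 10 tested ERK feedback genes were higher in the combination library, 5 of them by at least 1.5-fold (5.4% of mouse genes were), with a median log2 ratio of 0.52 against -0.028 over all mouse genes. Spry2 was at 98.997, 41.2, 78.5 and 50.4 CPM in the combination, erlotinib, agrimoniin and control libraries, a ratio of combination over erlotinib of 2.40 (1.70 to 3.41). Dusp6 was at 303, 189, 274 and 283 CPM in the same order, a ratio of 1.60 (1.34 to 1.90), and as in the human parts the erlotinib library was the lowest of the 4. Dusp4 (107 and 58.5 CPM), Spry4 (58.5 and 31.1 CPM) and Spry1 (51.7 and 27.5 CPM) were also higher, while Dusp5 (415 and 414 CPM) and Spred2 (49.5 and 52.8 CPM) were level. Every barcode holds both species, and reads of orthologues placed on the wrong one were not measured. The human log2 ratio of DUSP6 was 1.62 over all human parts and 1.7 over barcodes that were 75% human or more.

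**Figure D3:**
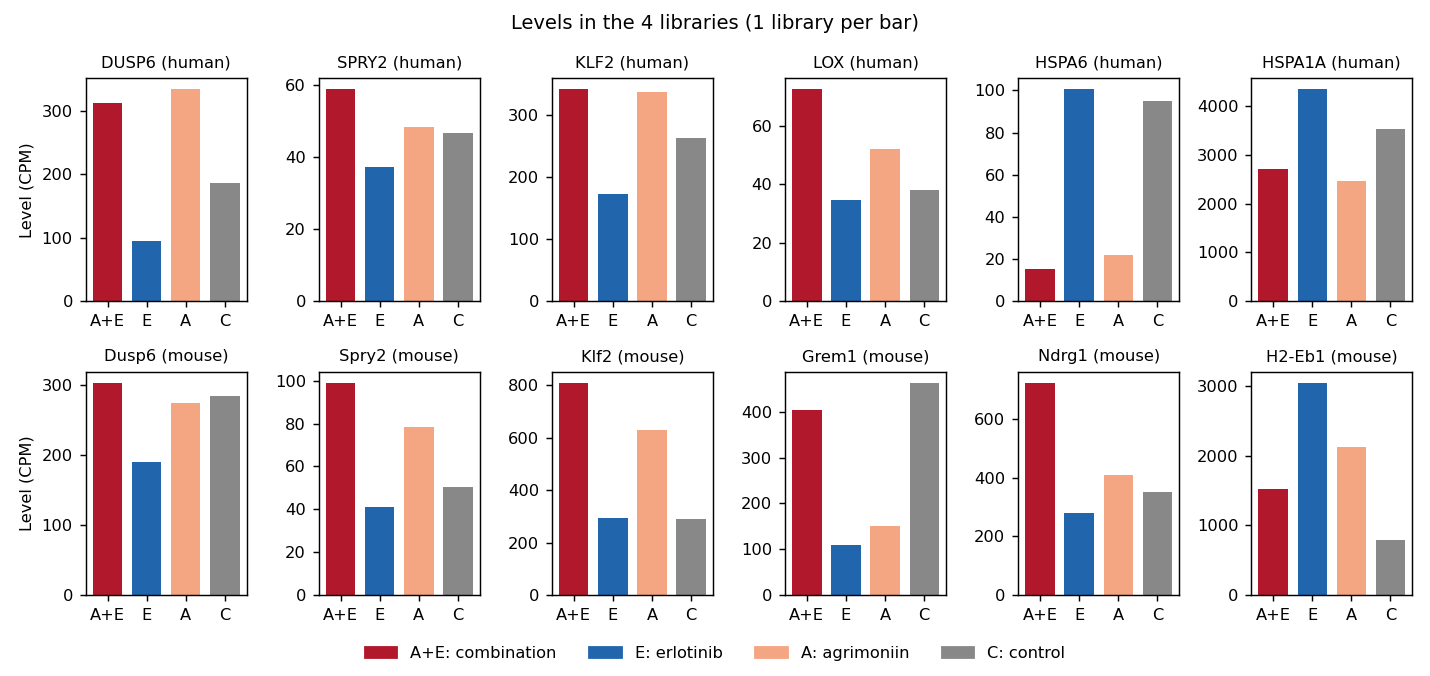
Level (CPM, each axis from 0) of 6 human genes (upper row) and 6 mouse genes over all mouse parts (lower row), with 1 bar per library, in the order combination, erlotinib, agrimoniin and control. DUSP6 is lowest in the erlotinib library (95.1 CPM), and HSPA6 is low in both libraries given agrimoniin (15.1 and 21.9 CPM).

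Immediate early genes, which encode transcription factors and feedback proteins made within minutes of a stimulus, leaned higher in the host of the combination library and not in its tumour cells, a difference that was not tested. In the host 19 of 20 tested members were higher in the combination library, 9 by at least 1.5-fold (5.4% of mouse genes were), with a median log2 ratio of 0.57 and a summed level of 34937 CPM in the combination library and 23149 CPM in the erlotinib library. In the tumour cells 13 of 30 were higher and 17 lower, with a median of -0.14 (0.11 in barcodes whose mouse part was macrophage-like), and 2, KLF2 and KLF4, were higher by at least 1.5-fold (0.561% of human genes were). Mouse Fos was at 5803 and 3223 CPM in the combination and erlotinib libraries (1.80, 1.73 to 1.87), mouse Egr1 at 4030 and 2661 CPM (1.51) and mouse Egr3 at 177 and 81.7 CPM (2.16). Human FOS was at 1358 and 1157 CPM (1.17), and human EGR1 was lower at 1106 and 1266 CPM (0.874, 0.836 to 0.914). Human IER2 (232 and 299.8 CPM), IER5 (70.8 and 105 CPM) and JUN (788 and 919.8 CPM) were lower, and KLF6 (1456 and 1112 CPM) and the secreted YAP target CCN2 (216 and 151 CPM) higher.

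KLF2, a Krüppel-like factor that restrains inflammatory genes in endothelium and macrophages, was higher in the combination library in both species. Human KLF2, at chr19:16324817-16327874 (+), stood at 342 CPM in the combination library and 173 CPM in the erlotinib library (1.98, 1.79 to 2.18), with 338 CPM in the agrimoniin and 264 CPM in the control library. Mouse Klf2 stood at 810.0, 294, 631 and 289 CPM in the combination, erlotinib, agrimoniin and control libraries (2.75, 2.44 to 3.12). The mouse values form 2 levels, high in both libraries given agrimoniin and low in both without it. The human log2 ratio of KLF2 was 0.94 over all human parts and 0.92 over barcodes that were 75% human or more. KLF4 was at 106 and 52.2 CPM in human parts (2.03, 1.69 to 2.43) and Klf4 at 964 and 664 CPM in mouse parts, and the human log2 ratio was 0.35 in barcodes whose mouse part was fibroblast-like.

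Other human genes among the 12 highest encode receptors, adhesion and nuclear-envelope proteins. SYNE1, a giant protein that links the nucleus to the cytoskeleton, was at 83.0 CPM in the combination library and 38.1 CPM in the erlotinib library (2.18, 1.77 to 2.69). ITGB8, the integrin subunit that activates latent TGF-beta, was at 72.0 and 33.9 CPM (2.12, 1.70 to 2.66), and the transcription factor MEF2C at 51.1 and 22.2 CPM (2.30, 1.75 to 3.03). For each of these genes the control library, at 76.8, 45.9 and 28.9 CPM in the same order, lay between the combination and the erlotinib library. SERPINA3, an acute-phase protease inhibitor, was at 42.8 and 8.74 CPM, but 67.7% of its UMIs in the combination library came from 1 barcode, and its log2 ratio was 1.49 with and 0.45 without the top barcode. IGFBP5, at 68.2 and 14.6 CPM, had a larger log2 ratio (1.67) but a UMI in 6.94% of human parts of the combination library, under the 10% that the naming rule asks.

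Among the lowest human genes outside the heat-shock list were FAM107B (23.2 and 45.6 CPM), the MAX-binding repressor MXD1 (25.4 and 49.0 CPM), the secreted protein C1QTNF12 (13.2 and 28.6 CPM), the zinc-finger gene ZNF124 (14.8 and 29.4 CPM) and ADAMTSL4-AS1 (22.8 and 48.5 CPM). The counting is not stated to use strand, so reads of ADAMTSL4-AS1 and of the gene opposite it cannot be told apart. KRT80 stood at 19.9, 46.6, 44.4 and 40.9 CPM in the combination, erlotinib, agrimoniin and control libraries and was low in the combination alone, whereas C15orf48, at 13.5, 37.3, 23.0 and 16.1 CPM, and the WNT-inactivating enzyme NOTUM, at 18.0, 40.8, 23.3 and 21.1 CPM, were high in the erlotinib library alone.

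BMP signalling genes leaned higher, as 13 of 17 tested members were higher in the combination library and 4 lower, with a median log2 ratio of 0.12. The interval of the ratio lay above 1 for 5 members and below 1 for 1. Past 1.5-fold was 1 member, the receptor BMPR1B (0.561% of human genes were higher by as much). BMP receptors switch on the ID genes, which block differentiation factors. ID1 was at 543, 395, 416 and 544 CPM in the combination, erlotinib, agrimoniin and control libraries, a ratio of combination over erlotinib of 1.38 (1.28 to 1.48). ID3 was at 204 and 141 CPM in the combination and erlotinib libraries (1.44, 1.28 to 1.62), the type II receptor BMPR2 at 385 and 303 CPM (1.27), the type I receptor ACVR1 at 66.6 and 52.7 CPM and the ligand BMP6, which was lower, at 40.8 and 53.2 CPM (0.767). ID1 in the combination library was at the level of control, and the erlotinib and agrimoniin libraries lay below both.

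The aryl hydrocarbon receptor AHR, a transcription factor that small-molecule ligands activate, and its targets leaned the same way, with 6 of 8 tested genes higher and a median of 0.26. CYP1B1, a cytochrome P450 that AHR induces, was at 42.8, 17.7, 18.4 and 28.9 CPM in the combination, erlotinib, agrimoniin and control libraries (2.41, 1.78 to 3.28). TIPARP, an AHR-induced ADP-ribosyltransferase that feeds back on the receptor, was at 61.4 and 41.3 CPM in the combination and erlotinib libraries (1.49, 1.20 to 1.85), and AHR itself at 273 and 202 CPM (1.36, 1.23 to 1.498). Without erlotinib, AHR was at 215 CPM in the agrimoniin library and 274 CPM in the control library, and TIPARP was level at 54.7 and 54.1 CPM.

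Genes of proliferation and metabolism, which the title of the series names, differed little over all human parts. S-phase genes had a median log2 ratio of -0.081 (14 higher and 35 lower of 49) and G2/M genes -0.10 (23 higher and 31 lower of 54). Of the G2/M genes KIF2C, at 29.3 and 51.4 CPM, and RANGAP1, at 16.7 and 30.5 CPM, were lower by at least 1.5-fold (0.389% of human genes were). MKI67, a marker of dividing cells, was at 143 and 160.5 CPM (0.890, 0.785 to 1.01). The values differed with the barcodes taken. In barcodes whose mouse part was macrophage-like the S-phase median was -0.21, the G2/M median -0.38 and the log2 ratio of MKI67 -0.74, and in those whose mouse part was fibroblast-like they were -0.099, 0.034 and 0.22. Glycolysis enzymes had a median of -0.073 over 17 genes and lactate handling genes -0.035 over 13, with 0 of either past 1.5-fold. The lactate dehydrogenase subunits LDHA and LDHB were at 778 and 878 CPM (0.886, 0.840 to 0.934) and 325 and 358 CPM (0.910, 0.838 to 0.988). Hypoxia genes had a median of 0.037 over 20, and their members moved apart: the collagen crosslinker LOX was at 72.7 and 34.7 CPM (2.09, 1.68 to 2.62), while NDRG1 was at 20.9 and 36.0 CPM (0.580) and ANGPTL4 at 35.7 and 51.6 CPM.

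Antigen presentation genes leaned higher in the human parts of the combination library. MHC class I genes had 12 of 13 members higher and a median of 0.15, with 0 past 1.5-fold and the peptide trimmer ERAP1 at 23.2 and 15.1 CPM (1.53, 1.07 to 2.21). The 1 lower member was B2M, the light chain of class I molecules, at 453 and 542 CPM (0.836, 0.781 to 0.895). By contrast, interferon response genes had 2 of 11 higher and a median of -0.087. The YAP partner WWTR1 was higher at 431 and 315 CPM (1.37, 1.27 to 1.48) and the TGF-beta ligand TGFB1 lower at 7.08 and 15.9 CPM. The cytokine IL32 was lower at 14.2 and 29.9 CPM. Oxidative phosphorylation (-0.027 over 50 nuclear genes), mitochondrially encoded genes (-0.018 over 13), cholesterol synthesis (-0.04 over 23) and the integrated stress response (0.052 over 23) had medians near that of all genes, and 0 of their members passed 1.5-fold.

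Several further lists had medians within 0.1 of 0. NRF2 targets had a median of 0.062 (10 higher and 9 lower of 19), with the heme oxygenase HMOX1 at 25.1 and 40.3 CPM (0.623). Mesenchymal genes had -0.061 (7 higher and 12 lower of 19), with the actin-binding protein CALD1 at 69.5 and 108 CPM (0.641). Autophagy and lysosome genes had 0.039 (13 higher and 5 lower of 18), with the lysosomal protease CTSD at 107 and 82.6 CPM (1.30), and p53 targets had -0.032 (8 higher and 8 lower of 16).

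The host differed more than the tumour. Of 8754 mouse genes tested over all kept mouse parts, 473 (5.4%) were higher and 564 (6.44%) lower by at least 1.5-fold, together 11.8%, against 0.95% of human genes at a higher depth. At a mean of at least 50 CPM the mouse log2 ratios had an SD of 0.377, of which counting error alone would give 0.199. Such sums over all parts mix the make-up of the host cells with the level in each cell, and fewer cells of a type and less RNA per cell cannot be told apart in them, so the classes of mouse parts were also read separately. In fibroblast-like parts the SD was 0.504 (0.305 from counting error alone) and in macrophage-like parts 0.445 (0.332). The 8 highest mouse genes over all parts were Grem1, Cryab, Egln3, Angptl2, Nexn, Tnn, Ero1l and Mgll, and the 8 lowest Tpm3-rs7, Gbp2b, Ak1, Spp1, Cxcl9, Ccr2, Rnaset2b and Ifi44. By fixed markers 97 of 249 mouse parts in the combination library (39.0%, exact interval 32.9% to 45.3%) were macrophage-like, against 136 of 305 (44.6%, 38.9% to 50.4%) in the erlotinib library. Fibroblast-like parts made up 37.3% (31.3% to 43.7%) and 29.2% (24.1% to 34.6%), monocyte-like parts 16.1% (11.7% to 21.2%) and 21.6% (17.1% to 26.7%), and pericyte or smooth muscle-like parts 3.21% (8 parts) and 1.31% (4 parts). The intervals of each pair overlap, and genes that define the clusters also differed between the libraries, so the shares are descriptions. The median human share of a barcode's UMIs was 79.4% in the combination library and 75.6% in the erlotinib library, and its part in these shares was not tested.

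**Figure D4:**
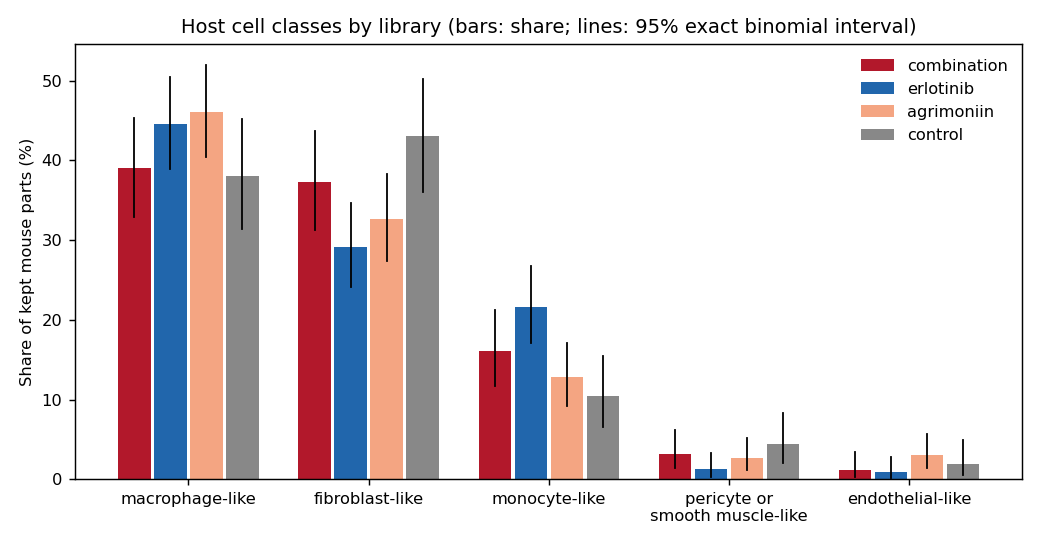
Share of kept mouse parts (percent, bars from 0) in 5 classes in the combination, erlotinib, agrimoniin and control libraries, with lines for the exact 95% intervals, which cover counting error only. Fibroblast-like parts were 37.3% in the combination library and 29.2% in the erlotinib library, with overlapping intervals.

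Contractile and matrix-remodelling genes of myofibroblasts were higher in the combination library. Over all mouse parts 12 of 13 tested myofibroblast genes were higher, 11 by at least 1.5-fold (5.4% of mouse genes were), with a median log2 ratio of 0.99. The listed genes summed to 5356 CPM in the combination library and 2606 CPM in the erlotinib library. The BMP antagonist Grem1 was at 405, 108, 150.2 and 463 CPM in the combination, erlotinib, agrimoniin and control libraries, a ratio of combination over erlotinib of 3.74 (3.08 to 4.55). The actin-binding protein Tagln was at 618, 219.7, 332 and 714 CPM, and smooth muscle actin Acta2 at 655, 284, 326 and 708 CPM. For all 3 genes the combination lay near control, and the 2 single-drug libraries lay lower. Pericyte and smooth muscle markers, which share Acta2, summed to 952 CPM in the combination library and 391 CPM in the erlotinib library, while the 10 fibroblast markers summed to 34336 and 34863 CPM.

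The same was seen within the 93 fibroblast-like parts of the combination library and the 89 of the erlotinib library, in which 24.4% of the 8276 genes tested passed 1.5-fold either way (12.5% higher, 11.9% lower). There 12 of 14 tested myofibroblast genes were higher, each of the 12 by at least 1.5-fold, with a median of 0.85 against -0.0033 over all genes. Grem1 was at 875 and 264 CPM in the combination and erlotinib libraries (3.31, 2.73 to 4.03), Tagln at 1201 and 506 CPM (2.37), Acta2 at 1162 and 591 CPM (1.97) and Ccn2 at 2228 and 1310 CPM (1.70). Grem1, Tagln and Lrrc15 are among the leading genes of 1 of the 2 fibroblast-like clusters, which held 56 of the 93 parts in the combination library and 53 of the 89 in the erlotinib library. The make-up differed at a finer clustering (Leiden resolution 1.0), where a cluster led by Hmga2, Grem1, Pgf, Pappa, Htr1b and Ero1l, left unnamed, held 23, 11, 11 and 23 parts in the combination, erlotinib, agrimoniin and control libraries, and its part in these values was not tested.

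Hypoxia and glucose-uptake genes of the host stood out in the same parts. This hypoxia list is the human one carried over by symbol after the mouse values had been seen. Of its 21 genes 17 were higher in fibroblast-like parts, 14 by at least 1.5-fold (12.5% of all genes tested there were), with a median log2 ratio of 0.74. The human list in the tumour cells had a median of 0.037. Ndrg1 was at 1245, 339, 603 and 428 CPM in the combination, erlotinib, agrimoniin and control libraries (3.67, 3.10 to 4.36), in contrast to human NDRG1, which was lower. Ero1l, an oxidase of protein folding that hypoxia induces, was at 509.7 and 108 CPM in the combination and erlotinib libraries (4.71, 3.52 to 6.37), the oxygen sensor Egln3 at 93.1 and 19.5 CPM, the mitophagy receptor Bnip3 at 439 and 140.2 CPM and the peptide hormone Adm at 137 and 39.0 CPM. The angiogenic factors Vegfa (1184 and 768 CPM, 1.54) and Pgf (203 and 76.3 CPM) were also higher, and the hypoxia factor Epas1 was lower at 27.0 and 47.9 CPM. Among glycolysis genes 14 of 15 were higher, led by the glucose transporter Slc2a1 at 336 and 92.3 CPM (3.64, 2.63 to 5.11).

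Matrix genes did not follow the myofibroblast list. In fibroblast-like parts 10 of 29 collagen and matrix genes were higher and 19 lower, with a median of -0.11. Thbs2, a matricellular regulator, was at 1372 and 589 CPM and Postn at 1774 and 979.6 CPM, both higher in the combination library. Col1a1, the main fibrillar collagen chain, was at 42144 and 47888 CPM, Col3a1 at 8205 and 12628 CPM, Tnc at 1858 and 3558 CPM and the basement-membrane-associated Col15a1 at 328 and 1356 CPM, all lower. Inflammatory fibroblast genes had a median of -0.22 (9 higher, 11 lower), with the acute-phase protein Saa3 at 216 and 800.4 CPM and the chemokine Cxcl14 at 551 and 1407 CPM lower and Il6 higher at 157 and 63.9 CPM. Cell-cycle genes had 16 of 18 lower and a median of -0.82, with Top2a, the topoisomerase of dividing cells, at 44.1 and 129.6 CPM. Over all mouse parts the cell-cycle median was -0.17 (6 higher, 9 lower), and in macrophage-like parts 0.085 (4 higher, 3 lower). A cluster led by Stmn1 and Top2a, with 7 combination and 5 erlotinib parts, was left unnamed and so lies outside the fibroblast-like parts. The highest genes of these parts by rank were Mmp10 (198 and 7.10 CPM, with 35.8% of its combination UMIs in 1 barcode), the fatty-acid-binding protein Fabp5 (389.6 and 65.7 CPM), Ero1l, Kcnma1 (58.8 and 8.87 CPM) and Ndrg1. The lowest were Tpm3-rs7, C1qc, H2-Eb1, Arc (0 and 76.3 CPM) and Cd74. C1qc (17.2 and 269.7 CPM), H2-Eb1 (12.3 and 211 CPM) and Cd74 (12.3 and 149 CPM) are macrophage genes. In the erlotinib library the top barcode of each held 30.3%, 45.4% and 39.3% of its UMIs in the same order. All 10 macrophage markers together summed to 191 CPM in the combination library and 864 CPM in the erlotinib library in these fibroblast-like parts. Of the 7 tested, 7 were lower. The part of this macrophage RNA in the other values was not tested.

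**Figure D5:**
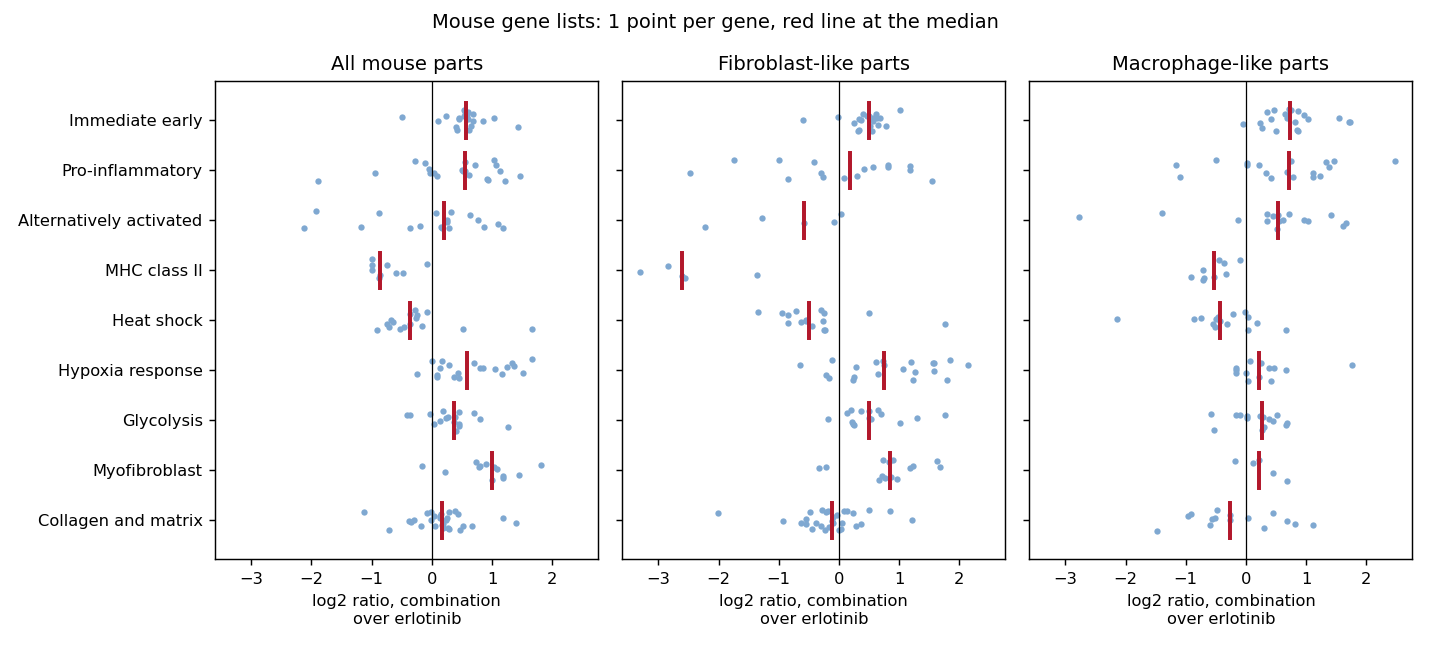
Log2 ratio of the combination over the erlotinib library (pseudocount 10 CPM) for the members of 9 mouse gene lists, over all parts, in fibroblast-like parts and in macrophage-like parts, with 1 point per gene and a red line at the median of the list. Over all parts the myofibroblast list lies at 0.99 and MHC class II presentation at -0.85.

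Macrophage-like parts of the combination library had higher levels of inflammatory mediators and lower levels of MHC class II. In the 97 macrophage-like parts of the combination library and the 136 of the erlotinib library, 9.5% of 7886 genes were higher by at least 1.5-fold and 13.5% lower, together 23.0%. Of 18 tested pro-inflammatory genes 15 were higher, 10 by at least 1.5-fold, with a median log2 ratio of 0.72 against -0.038 over all genes. The cytokine Tnf was at 554 CPM in the combination library and 205 CPM in the erlotinib library (2.71, 2.11 to 3.48), Il1b at 1970 and 899 CPM (2.19), the neutrophil chemokines Cxcl1 at 431 and 68.9 CPM (6.26, 4.31 to 9.29) and Cxcl2 at 1861 and 670.1 CPM (2.78), and the NF-kB inhibitor Nfkbia at 1638 and 692 CPM. Over all mouse parts Tnf was at 313, 108, 161 and 83.4 CPM in the combination, erlotinib, agrimoniin and control libraries. In the 40 and 66 monocyte-like parts, which were shallow and in which 43.9% of genes passed 1.5-fold, Tnf was at 903 and 108 CPM (95 and 24 UMIs), with 26.3% of the combination UMIs in 1 barcode. Of the chemokines on the same list, Cxcl9 was lower over all mouse parts, at 51.7, 219.7, 140.5 and 69.5 CPM in the combination, erlotinib, agrimoniin and control libraries, as was Ccl5 at 34.9 and 75.9 CPM in the combination and erlotinib libraries. Cxcl10, which interferon also induces, was higher at 804 and 549 CPM (1.47, 1.32 to 1.63). Immediate early genes had 19 of 20 members higher in macrophage-like parts, 13 of them by at least 1.5-fold, and Klf2 at 1573, 473, 928 and 378 CPM.

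Genes of alternatively activated macrophages were higher as well, 13 of 16 in macrophage-like parts with a median of 0.54, so the inflammatory and the alternative list did not trade places. The anti-inflammatory cytokine Il10 was at 116 and 29.8 CPM in the combination and erlotinib libraries, the chemokine Ccl8 at 2008 and 745 CPM, the transglutaminase F13a1 at 387 and 182 CPM and the hyaluronan receptor Lyve1 at 144 and 68.9 CPM. Spp1, osteopontin, was lower at 188 and 510.0 CPM, and Gpnmb, a lysosomal membrane protein of lipid-laden macrophages, was lower at 10.3 and 128 CPM. Ccl8, F13a1 and Lyve1 lead 1 of the 3 macrophage-like clusters, which held 26 of the 97 parts in the combination library and 31 of the 136 in the erlotinib library. Il1b leads another, with 39 and 49 parts, the largest of the combination library, while the largest of the erlotinib library was the third, with 32 and 56 parts. At resolution 1.0 some clusters that scored highest for macrophages were left unnamed. One led by Ccr2, Il7r and Adam8 held 10, 35, 18 and 24 parts in the combination, erlotinib, agrimoniin and control libraries. Another led by Fcrls and Plxnc1 held 29, 29, 39 and 16 parts in the same order. Their part in the values of macrophage-like parts was not tested.

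By rank, the highest genes of macrophage-like parts included Cxcl1, the ETS repressor Erf (37.6 and 3.72 CPM), Klf2 and the receptor Fgfr1 (58.1 and 11.2 CPM). Erf rests on few UMIs, 11 in the combination library and 2 in the erlotinib library. The lowest were Tpm3-rs7, Gpnmb, Gbp2b (17.1 and 151 CPM), the heat-shock protein Hspb1 (17.1 and 109.8 CPM) and A930014D07Rik (3.42 and 44.7 CPM, 1 and 24 UMIs). Of the Hspb1 UMIs in the erlotinib library 47.5% came from 1 barcode, and the control library was at 8.59 CPM. Fibroblast markers summed to 345 CPM in the combination library and 672 CPM in the erlotinib library in these parts, and their part in the values was not tested.

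MHC class II presentation was lower in each of its 9 tested members, both over all mouse parts (median -0.85, 7 by at least 1.5-fold, against 6.44% of all genes) and in macrophage-like parts (median -0.53, 4 by at least 1.5-fold, against 13.5% of all genes). In macrophage-like parts the class II chain H2-Aa was at 2603 and 4270 CPM in the combination and erlotinib libraries (0.610, 0.561 to 0.662), the invariant chain Cd74 at 2829 and 4648 CPM (0.609) and the peptide loader H2-DMa at 209 and 225 CPM (0.926, 0.670 to 1.27). The list summed to 19275, 28000, 23520 and 28532 CPM in the combination, erlotinib, agrimoniin and control libraries, so the combination was the lowest of the 4 and erlotinib stood near control. Macrophage markers summed to 22438 CPM in the combination library and 23840 CPM in the erlotinib library in the same parts. Over all mouse parts the class II chain H2-Eb1 was at 1521, 3043, 2127 and 794 CPM in the combination, erlotinib, agrimoniin and control libraries, with control the lowest there. Mast cell markers summed to 3.42 CPM (1 UMI) in the combination library and 316 CPM (170 UMIs) in the erlotinib library in these parts. Dendritic cell markers, which come with MHC class II, summed to 270.2 CPM in the combination library and 478 CPM in the erlotinib library. Only 1 of the 7 dendritic cell markers reached a mean of 10 CPM there. The part of both marker sets in the class II values was not tested.

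The lowest mouse genes by rank were in part copies of other genes or members of the guanylate-binding family. Tpm3-rs7, a copy of the tropomyosin gene Tpm3, had 0 UMIs in the combination library and 263 in the erlotinib library, with 2.24 CPM in the agrimoniin and 66.1 CPM in the control library, which makes it at least 56.3-fold lower at a floor of 3 counts per library (the exact counting interval reaches down to 45.5-fold). Gbp2b was at 11.2, 129, 12.7 and 62.6 CPM in the combination, erlotinib, agrimoniin and control libraries, and Rnaset2b at 4.50, 38.3, 2.99 and 30.4 CPM. All 3 were low in both libraries given agrimoniin, while their partners of similar sequence Tpm3 (399 and 381 CPM in the combination and erlotinib libraries), Gbp2 (119 and 86.7 CPM) and Rnaset2a (146 and 164 CPM) were not. Reads of such pairs can be split by the counting, so these values are uncertain. Summed over each pair the differences were smaller, with Tpm3-rs7 plus Tpm3 at 399 and 571 CPM in the combination and erlotinib libraries (1.43-fold lower, 1.26 to 1.62), Gbp2b plus Gbp2 at 130.5 and 216 CPM (1.66-fold lower, 1.33 to 2.07) and Rnaset2b plus Rnaset2a at 151 and 202 CPM (1.34-fold lower, 1.09 to 1.66). A sum with a partner that differs less must give a smaller difference, so the sums cannot tell whether reads were split. Ak1 (13.5, 83.8, 34.4 and 70.4 CPM) and Ifi44 (66.4, 205, 85.9 and 179.9 CPM) were also lower in both libraries given agrimoniin than in both without it. The labels do not say whether the host animals of the 4 libraries share a strain background, so a difference of treatment and one of host background cannot be told apart for these 5 genes.

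The addition of agrimoniin to erlotinib was finally set beside its addition to control, ratios that share no library. Across the 4019 human genes with a mean of at least 50 CPM the log2 ratios had a Pearson correlation of 0.11, and across 3762 mouse genes -0.061, both over genes, which are not replicates. Of the 52 human genes higher by at least 1.5-fold 25 were above 0 in agrimoniin over control and 2 passed 1.5-fold there, against 55.5% above 0 and 0.518% past 1.5-fold over all human genes tested. Of the 36 lower genes 20 were below 0, where 55.5% of all human genes were above 0, and 2 passed, against 0.41% of all genes lower by 1.5-fold. Of the 473 higher mouse genes 212 were above 0 and 58 passed, against 50.8% and 6.57% of all mouse genes tested. Of the 564 lower mouse genes 231 were below 0 and 31 passed, against 5.46% of all mouse genes lower by 1.5-fold. Lists with the same sign of median in both additions included the human heat-shock chaperones (-0.26 and -0.18), the host heat-shock chaperones (-0.36 and -0.16), the host immediate early genes (0.57 and 0.57) and the pro-inflammatory genes over all mouse parts (0.54 and 0.71), the first value of each pair being the addition to erlotinib. S-phase (-0.081 and 0.19), G2/M (-0.10 and 0.15) and myofibroblast genes (0.99 and -0.83) had opposite signs. The difference between the 2 additions was not tested.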

How the data were processed

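The deposited values were raw counts of UMIs per gene and barcode, written by the authors from 4 single-cell libraries; Cell Ranger and the builds hg38 and mm10 are named per the submitters' processing notes, with no Cell Ranger version stated there. Per the labels' protocols a Chromium 3′ kit (V3) was used, although the deposited barcodes have 27 bases in 3 blocks, which is not the layout of that kit. Depth was 4050572 UMIs in the combination, 5301915 in the erlotinib, 5133188 in the agrimoniin and 3656549 in the control library.

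UMIs on the GRCh38 features of a barcode were taken as its human part and those on mm10 features as its mouse part. Parts with under 500 UMIs, under 250 genes or over 25% mitochondrial UMIs were dropped. Doublets were not called or removed, as each barcode mixed both species. UMIs were summed over kept parts and scaled to CPM. Ratios on the log2 scale were taken after adding 10 CPM, so that changes of low genes are understated, for genes with a mean of at least 10 CPM over the combination and erlotinib libraries. Each CPM ratio carries its exact 95% interval given the summed count of the gene, and shares an exact Clopper-Pearson interval. No test across samples was possible with 1 library a side.

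The members and lists were chosen with earlier results of these data known. Named genes were the 12 highest and 12 lowest log2 ratios of human genes, 8 and 8 of mouse genes and 5 and 5 within a mouse class, among genes averaging 20 CPM or more and seen in 10% or more of the parts of the higher library, plus EGFR, LDHA, LDHB, MKI67 and the DUSP, SPRY and SPRED genes, and members of the lists, of which some are not reported here. Mouse parts of all 4 libraries were clustered with scanpy 1.11.5 and leidenalg 0.10.2 (2000 variable genes, 20 components, 15 neighbours, resolution 0.5). A cluster was named when at least 3 markers of a class were each seen in at least 25% of its parts. The median log2 fold of these markers had to be at least 1. It stayed unnamed if its leading genes held more markers of another class than of its own. A shallow cluster also needed a marker of its class among its leading genes. These limits were set after the clusters were seen, so class names were rebuilt here. Classes with under 20 parts in either library, and the shallow monocyte-like class apart from Tnf, are given as shares only.

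Scripts ran in Python 3.11.15 with numpy 2.4.6, scipy 1.17.1, pandas 2.3.3 and matplotlib 3.10.9, and were checked on simulated data. Gene positions are from GENCODE 29 and promoters from RefSeq (GRCh38.p14). Other pseudocounts, level limits, part filters, scalings and class namings were tried.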

Additional observations from a re-analysis of the deposited data

Results flagged for a closer look

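For the results below the addition of agrimoniin had opposite signs with and without erlotinib, by at least 1.5-fold in each for a gene and a median log2 ratio of at least 0.2 in each for a list, in libraries that the 2 ratios do not share. The first value is the log2 ratio of combination over erlotinib and the second that of agrimoniin over control, over all mouse parts, and the difference was not tested. Genes higher with erlotinib and lower without it were the BMP antagonist Grem1 (1.81 and -1.56), the chaperone Cryab (1.67 and -1.03), the oxygen sensor Egln3 (1.66 and -0.63), the angiopoietin-like protein Angptl2 (1.66 and -0.95), the actin-binding protein Nexn (1.54 and -0.90), the matrix protein Tnn (1.52 and -1.03) and the oxidase Ero1l (1.51 and -0.76). The chemokine Cxcl9 had the reverse pattern (-1.90 and 0.92). As medians of lists, myofibroblast genes (0.99 and -0.83), host glycolysis (0.37 and -0.23) and the host hypoxia list (0.58 and -0.21) were higher with erlotinib and lower without, and MHC class II presentation (-0.85 and 0.32) lower with and higher without. In macrophage-like parts the MHC class II medians had the same sign (-0.53 and -0.084).

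In CPM, the combination, erlotinib, agrimoniin and control libraries had 179, 49.9, 80.0 and 163 of Angptl2, 69.7, 17.3, 35.1 and 73.9 of Nexn, and 95.6, 26.7, 8.97 and 28.7 of Tnn. For Angptl2 and Nexn the combination and control libraries were higher than both single-drug libraries, as they were for Grem1. For Tnn the combination library was the highest, and control stood close to erlotinib (33 and 37 UMIs). Fibroblast-like parts made up 37.3%, 29.2%, 32.7% and 43.1% of mouse parts in the same order. At resolution 1.0 their shares were 23.7%, 23.0%, 24.2% and 28.7%, and with parts of at least 2590 mouse UMIs 32.0%, 30.1%, 33.2% and 32.2%. Both settings leave out unnamed clusters that scored highest for fibroblasts. At resolution 1.0 these were led by Hmga2 and Grem1 (23, 11, 11 and 23 parts) and by Lif and Il6 (11, 7, 14 and 6 parts). With at least 2590 UMIs a cluster led by Hmga2 and Grem1 (16, 10, 9 and 23 parts) was left out. The settings therefore do not count the same parts, and how the share relates to the levels was not tested.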

How the results depend on the processing

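The human counts past 1.5-fold (52 higher, 36 lower) moved with the settings. They were 197 and 164 at a pseudocount of 1 CPM, 24 and 5 at a mean of at least 50 CPM, 102 and 62 in barcodes with at least 75% human UMIs, 103 and 86 at no more than 10% mitochondrial UMIs, 7 and 3 past 2-fold, 185 and 225 in barcodes with a macrophage-like mouse part, and 277 and 232 with a fibroblast-like one. The mouse counts (473 higher, 564 lower) were 822 and 975 at a pseudocount of 1 CPM, 196 and 185 at a mean of at least 50 CPM, and 94 and 90 past 2-fold. Stricter limits test fewer genes or parts by construction, and otherwise the cause was not tested. The human heat-shock median was -0.37 with a macrophage-like mouse part, the host MHC class II median -0.75 with no limit on CPM, and the host immediate early median 0.68 as the mean of part CPM. Macrophage-like shares in the combination and erlotinib libraries were 24.5% and 27.9% at Leiden resolution 1.0 and 49.0% and 56.7% when each part took its highest marker score. At resolution 1.0, 34.9% and 32.8% of mouse parts were left unnamed, against 2.81% and 1.64% in the main clustering. The unnamed parts include clusters that scored highest for macrophages or fibroblasts, so shares at that setting are not comparable with the main ones. Fibroblast-like shares were 23.7% and 23.0% at resolution 1.0, and 30.9% in the combination library by marker score. Monocyte-like shares were 8.43% and 10.8% by marker score, and 14.1% in the erlotinib library at resolution 1.0. With parts of at least 2590 mouse UMIs the combination and erlotinib libraries had 35.9% and 34.6% macrophage-like parts, so that the direction turned, and 18.3% and 29.3% monocyte-like parts. Unnamed parts were 10.5% and 4.07% at this setting.

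Of list medians of at least 0.2 in size, 0 of 2 human and 4 of 34 mouse ones turned sign under some setting, the 4 being host angiogenesis in fibroblast-like parts (-0.12, no CPM limit), alternatively activated genes in fibroblast-like parts (0.0096, mean of part CPM), inflammatory fibroblast genes (-0.22) and ERK feedback (-0.088) in macrophage-like parts, both with no CPM limit. Of smaller medians, 21 of 27 human and 5 of 11 mouse ones crossed 0 under some setting. Among them were pro-inflammatory genes in fibroblast-like parts (-0.12 to 0.42), host cell cycle genes over all mouse parts (-0.24 to 0.07), human immediate early genes (-0.25 to 0.11), G2/M genes (-0.38 to 0.034) and WNT genes (-0.086 to 0.15, in 7 of 12 settings). Further ranges were -0.0072 to 0.098 for ERK, -0.13 to 0.1 for the EGFR family, -0.028 to 0.37 for hypoxia, -0.085 to 0.0019 for glycolysis and -0.071 to 0.043 for lactate. Heat-shock (-0.37 to -0.23), BMP (0.099 to 0.29) and AHR (0.094 to 0.33) medians kept their sign, as did the log2 ratios of DUSP6 (1.6 to 1.8) and HSPA6 (-3.0 to -1.9). No paired analysis was possible because each group has 1 library. Depth limits the mouse classes, which in the combination library held 408058 UMIs in fibroblast-like, 292355 in macrophage-like and 105221 in monocyte-like parts.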

Other observations

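Mast cell markers over all mouse parts summed to 4.50, 126, 669.5 and 0.869 CPM in the combination, erlotinib, agrimoniin and control libraries. These were 4, 174, 896 and 1 UMIs. When each part took its highest marker score, 0, 1, 2 and 0 parts were mast cell-like in the same order. The sums can therefore rest on very few barcodes. The monocyte chemokine receptor Ccr2 was at 38.2 and 157 CPM in the combination and erlotinib libraries.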
